A study of Mus musculus with 8 samples.

Results

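The mouse genes of the microRNA miR-7 were followed in spleen B cells and in the small RNA bound to AGO2 in such cells. There are 3 such genes, Mir7-1, Mir7-2 and Mir7b, among 2202 miRNA features in the deposited count tables, of which 560 had a count in any library. Their rows were found by exact match of mm10 chromosome, start and end to RefSeq symbols. The family was selected on earlier results of these same libraries, so that every level and fold change of the 3 genes below is a description, without a test.

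All animals were Ago2HA/HA, meaning that both copies of the Argonaute gene Ago2 encode a protein with the HA epitope, and an anti-HA antibody precipitated that protein with its RNA. B cells were purified from spleen by removing CD43-positive cells and were used either resting or after activation in vitro until they proliferated. The sources used here give neither the activating agent nor the age of the mice. Each state gave an input and an immunoprecipitate (IP), in 2 libraries each, 8 in all. Per the labels, the precipitation from cells lacking the epitope recovered no RNA, so each IP is set against its input alone.

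miRNAs are cut from hairpin precursors and loaded into Argonaute proteins, which they guide to mRNAs that match their seed (bases 2 to 8). miR-7 is an ancient miRNA, conserved from flies to mammals, and is best known from neurons and from hormone-producing cells of the pancreas and pituitary. In mammals it is known for its ties to 2 unusual RNAs: the circular RNA Cdr1as, which carries many miR-7 sites, and the long noncoding RNA Cyrano, which triggers the destruction of mature miR-7.

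The mature sequences are shown because they define the family and decide which reads can be told apart. In each, the capitals mark the seed. They come from RefSeq (GRCm38.p6), where all 3 genes matched. The 5p arms, the main products of these genes, read as follows.
miR-7a-5p (from Mir7-1 and from Mir7-2): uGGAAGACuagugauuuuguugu
miR-7b-5p (from Mir7b): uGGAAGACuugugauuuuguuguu
The 3p arms differ between all 3 genes.
miR-7a-1-3p (Mir7-1): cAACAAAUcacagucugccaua
miR-7a-2-3p (Mir7-2): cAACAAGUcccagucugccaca
miR-7b-3p (Mir7b): cAACAAGUcacagccagccuca

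miR-7a-5p was identical in Mir7-1 and Mir7-2. Over 23 bases miR-7b-5p differed from it by the single substitution A10U (the miR-7a-5p base first, positions counted from 1 at the 5′ end), outside the seed, and it is listed with 1 more base at its end. The seed GGAAGAC was found in 0 other mature miRNAs of the 1679 names searched, so these genes make up their whole seed family in that table. The 3p arms of Mir7-1 and Mir7-2 differed at 3 positions (A7G, A10C and U21C), the first of which lies in the seed. Mir7-2 and Mir7b share the 3p seed.

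The precursors are shown with both mature arms in capitals, to set the 5p arm that Mir7-1 and Mir7-2 share against the 3p arms, loops and flanks that differ.
Mir7-1: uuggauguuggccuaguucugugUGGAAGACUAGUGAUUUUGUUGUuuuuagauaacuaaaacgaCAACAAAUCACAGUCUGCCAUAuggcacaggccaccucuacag
Mir7-2: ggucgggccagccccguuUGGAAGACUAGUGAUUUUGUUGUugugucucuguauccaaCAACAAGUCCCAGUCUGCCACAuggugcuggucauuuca
Mir7b: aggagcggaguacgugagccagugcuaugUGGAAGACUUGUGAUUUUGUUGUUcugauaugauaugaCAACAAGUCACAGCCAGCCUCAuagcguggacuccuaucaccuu

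Mir7-1 (ENSMUSG00000065434.1) lies on chromosome 13, 58392779 to 58392886, minus strand, inside the span of Hnrnpk, the gene of an abundant RNA-binding protein. The RefSeq spans used do not separate exons from introns. Mir7-2 (ENSMUSG00000065609.1) lies on chromosome 7, 78888277 to 78888373, plus strand, outside any RefSeq gene span, 7554 bases from the nearest protein-coding gene, Aen. Mir7b (ENSMUSG00000065491.1) lies on chromosome 17, 56242988 to 56243098, plus strand, also outside gene spans, 13695 bases from Fem1a. The predicted folding energies of the hairpins were -46.8, -40.5 and -35.0 kcal/mol for Mir7-1, Mir7-2 and Mir7b. No other counted feature overlapped any of the 3 genes on either strand.

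The identity of the arms limits what the counts of single genes can say. A stretch of 24 bases, miR-7a-5p and the base after it, is the same in the precursors of Mir7-1 and Mir7-2, so that a miR-7a-5p read of usual length fits both places. The sources used here do not say how such reads were counted. Of 37 named miRNA genes whose mature sequences all recur in another gene, 2 (5.41%) had 10 or more counts, against 268 of 919 genes (29.2%) that share none and 31 of 57 (54.4%) that share some, the class of Mir7-1 and Mir7-2. These shares do not show how reads that fit several genes were counted, since they also depend on which genes the cells express. The counts of Mir7-1 and Mir7-2 may leave out miR-7a-5p in part, which was not tested. Their split between the genes need not follow the 5p arm. All mature sequences of Mir7b are its own.

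Library totals ran from 213418 to 1681148 counts. The 2 libraries of a group correlated with r from 0.960 to 0.981 across the 219 features that passed the filter on low counts, all 3 miR-7 genes among them. No label ties replicates to different mice, so their spread may be technical. Resting and proliferating libraries stand in separate tables, and the state of the cells and the table cannot be told apart. Of 7 lymphocyte marker features 6 had counts, led by Mir150 and Mir155. Mir142 was at 0, but its annotation lies opposite that of Mir142b, so its true level is not known from these counts. In RNA from whole cell populations, fewer cells of a type and less RNA per cell cannot be told apart.

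Mir7-1 gave most of the counts of the family. On a counts-per-million scale with TMM factors (CPM below), it stood at 1010 and 972 in the resting inputs and at 942.5 and 634 in the resting IPs. In proliferating cells it was at 2184 and 1936 in the inputs and at 2628 and 2234 in the IPs. Within input and within IP both proliferating libraries were thus above both resting ones, as for 43.4% and 42% of all features. The raw counts behind these levels ran from 361 to 2635. Among features with a count, Mir7-1 ranked 46 and 48 in the resting inputs and 30 and 36 in the proliferating inputs.

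Mir7-2 was counted far less often. It had 17 and 22 counts in the resting inputs, or 47.6 CPM (95% exact counting interval 27.7 to 76.2) and 54.0 CPM (33.9 to 81.8). The resting IPs held 73.1 and 57.6 CPM. These 4 values are close, and the counting intervals of the inputs reach over both IP values. In proliferating cells the inputs stood at 423 CPM (358 to 497) and 210 CPM (161 to 271), so that the 2 inputs differed by more than counting error. The proliferating IPs were at 559 and 465 CPM. As with Mir7-1, the resting and proliferating libraries did not overlap in input or in IP (43.4% and 42% of all features). These intervals cover counting error only.

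Mir7b, which makes the form with the changed base, was at a level near that of Mir7-2. Its values were 84.0 CPM (56.7 to 119.9) and 54.0 CPM (33.9 to 81.8) in the resting inputs and 67.9 and 64.2 CPM in the resting IPs. In the proliferating inputs it was at 296 and 379 CPM, and in the IPs at 496 and 300.2 CPM. Input and IP overlapped in each state, while the states did not overlap in input or in IP (43.4% and 42% of all features). Here the replicates in the proliferating IP lay apart, with 339 counts in replicate 1 and 354 in the deeper replicate 2.

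**Figure D1:**
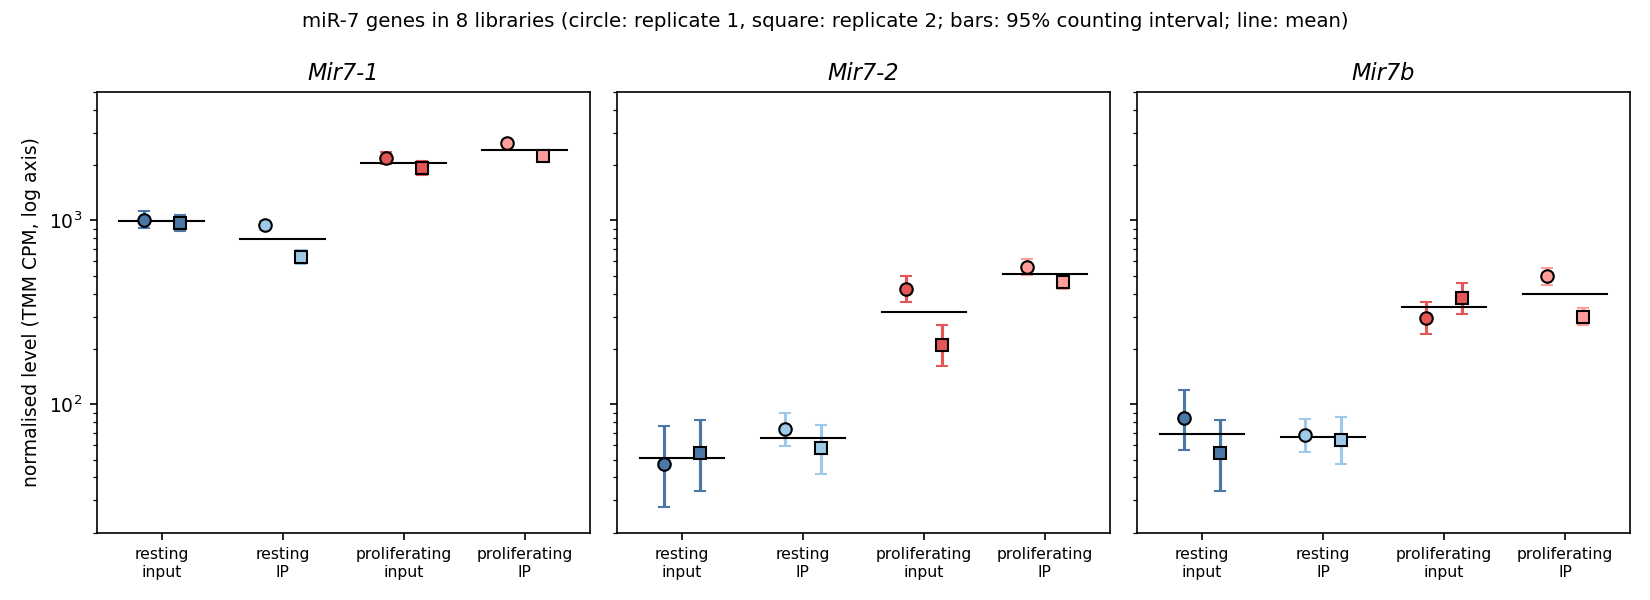
TMM-scaled counts-per-million values (log axis) of Mir7-1, Mir7-2 and Mir7b in the 2 libraries of each group, with 95% exact counting intervals and the group mean as a line. Mir7-1 lies between 634 and 2628 CPM, and Mir7-2 and Mir7b between 47.6 and 559 CPM. In each panel the proliferating libraries lie above the resting ones within input and within IP, as for 43.4% and 42% of all features.

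Summed over the 3 genes, miR-7 took 0.114% of all counts in each resting input (95% exact interval 0.103 to 0.125 in both). It took 0.372% (0.350 to 0.396) and 0.337% (0.313 to 0.363) of the proliferating inputs. The shares were 0.0864% (0.0820 to 0.0909) and 0.0716% (0.0658 to 0.0778) of the resting IPs, and 0.317% (0.304 to 0.329) and 0.257% (0.249 to 0.266) of the proliferating IPs. The 3 features thus held a small share of the deposited counts in each state and fraction, which need not be the share of miR-7 in the cells, since miR-7a-5p reads may be missing from them.

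The first comparison asks how the total small RNA of resting cells differs from that of proliferating cells. Mir7-1 was 2.08 times as high in proliferating input, with means of 2060 ± 176 there and 991 ± 26.9 CPM in resting input (mean ± SD, n = 2 here and below). Its log2 fold change of resting over proliferating cells was -1.06 (SE 0.30, edgeR). Mir7-2 was 6.23 times as high, at 317 ± 151 against 50.8 ± 4.55 CPM (-2.64, SE 0.45). Mir7b was 4.90 times as high, at 338 ± 58.3 against 69.0 ± 21.2 CPM (-2.29, SE 0.44). All 3 genes were called lower in resting input (Benjamini-Hochberg adjusted p under 0.05 over all 219 features), as were 57 features in all, a background of 26%. The libraries of the states did not overlap for any of the 3, which held for 43.4% of all features in this direction. Since the family was selected with these results known, nothing is read from those counts.

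Among all 219 features, 31.5% had a lower fold change than Mir7-1 in this comparison, 18.3% a lower one than Mir7b and 13.7% a lower one than Mir7-2, and the median feature was at -0.04. The call on Mir7-1 was lost with upper-quartile factors (-0.69, SE 0.29) and without resting input replicate 2 (-0.93, SE 0.42). Mir7-2 and Mir7b stayed below 0 in every alternative run, and their calls held in those that kept 2 libraries per group. Leaving out 1 library, Mir7-2 ran from -3.19 to -2.04 and Mir7b from -2.66 to -1.91. Calls from those fits are not given for these genes, which does not mean that they were lost. All these runs reuse the libraries on which the family was selected, so they add no support to the difference.

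Within the IP, the same comparison asks which miRNAs differ among those held by AGO2. Mir7-1 was 3.08 times as high in the proliferating IP, at 2431 ± 279 against 788.5 ± 218 CPM (-1.62 on the log2 scale, SE 0.30). Mir7-2 was 7.76 times as high, at 512 ± 66.5 against 65.3 ± 11.02 CPM (-2.96, SE 0.42), and Mir7b was 5.99 times as high, at 398 ± 138 against 66.1 ± 2.59 CPM (-2.58, SE 0.42). Of all features, 24.7% had a lower fold change than Mir7-1, 13.2% than Mir7b and 6.39% than Mir7-2. Again all 3 were called lower in resting cells, where 28.3% of features were, and none overlapped between states, where 42% of features were apart in this direction. The median feature was at -0.21. In AGO2-bound RNA as in the input, then, the 2 less counted genes showed the larger ratios between states. The sum of the 3 genes, fitted as 1 feature, was 2.42 times as high in proliferating input (log2 fold change -1.27, SE 0.25) and 3.23 times as high in proliferating IP (-1.69, SE 0.25).

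**Figure D2:**
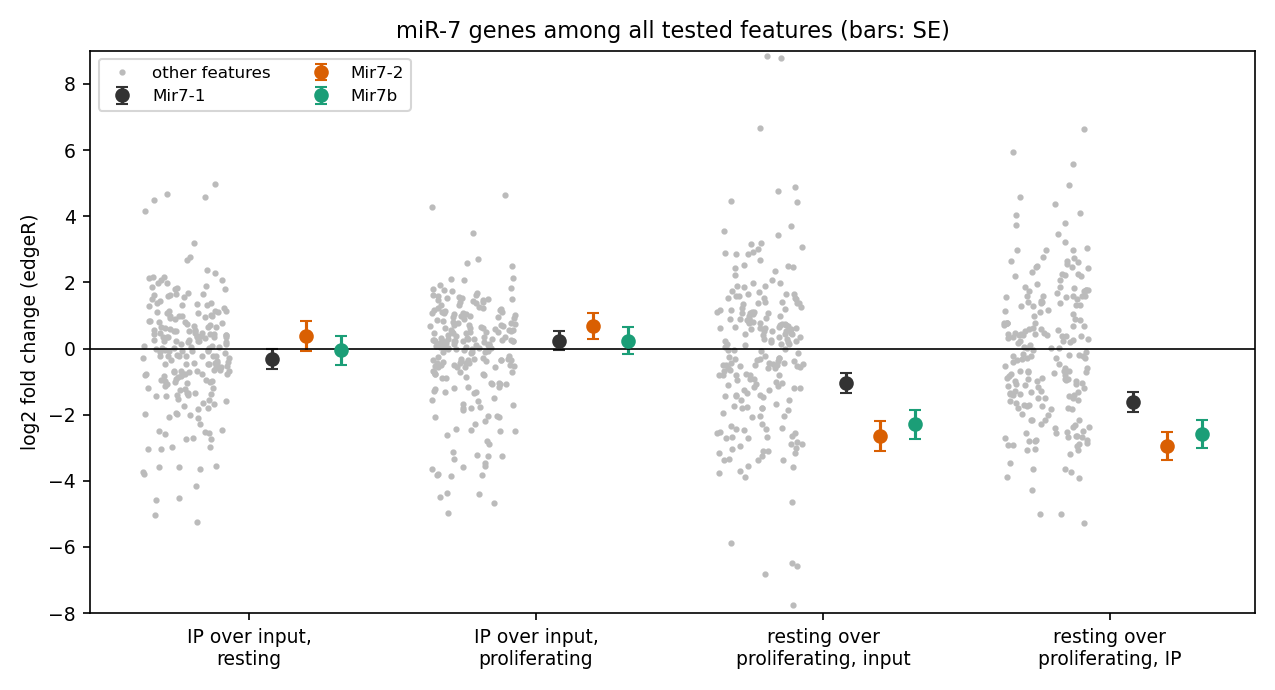
Log2 fold changes (edgeR) of Mir7-1, Mir7-2 and Mir7b with their SE, beside the other tested features as grey points, for IP over input in each state and for resting over proliferating cells in each fraction. The 3 genes lie between -0.33 and 0.68 for IP over input and between -2.96 and -1.06 for resting over proliferating cells.

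Between the states, marker miRNAs of non-lymphoid cells differed as well, and their part in the miR-7 difference was not tested. On a counts-per-million scale without TMM factors, the myeloid Mir223 ran from 11530 to 28560 in the resting inputs and from 2211 to 3388 in the proliferating inputs. The erythroid marker Mir144 was at 114 to 235 against 18.1 to 23.4, and the summed epithelial markers (5 of 5 counted) at 1089 to 1288 against 586 to 759. These were higher in resting cells, opposite to miR-7. Of the 5 epithelial markers 2 were called higher in resting input, beside 23.3% of all features. Mir200c was at a log2 fold change of 0 there (SE 0.37). In IP all 5 were called higher in resting cells, beside 23.7% of all features. The endothelial Mir126a went the same way as miR-7, at 173 to 254 in resting and 626 to 820 in proliferating inputs. Its annotation, like that of Mir142, overlaps a feature on the other strand, so its level is uncertain in both fractions. In the IPs Mir223 was at 14520 to 29390 in resting and 696 to 1064 in proliferating cells, Mir144 at 68.4 to 235 and 2.18 to 3.77, the epithelial sum at 1970 to 2087 and 380 to 441, and Mir126a at 61.3 to 147 and 889 to 1759. The stromal sum (4 of 6 counted, Mir199a-2 and Mir214 at 0) was at 12.9 to 30.7 in resting and 4.69 to 18.1 in proliferating inputs, and at 59.6 to 80.9 and 15.1 to 22.5 in the IPs. Mir10b gave 225 of its 248 counts.

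Because miR-7 is best known from neurons and endocrine cells, their markers were counted too. Mir375, the islet miRNA, had 6 counts in all, every one in resting IP replicate 1, and was at 0 in the other libraries. Of the 6 neural features Mir9-1 and all 3 Mir124a features were at 0, and Mir9-2 and Mir9-3 had 1 and 3 counts, all in proliferating libraries. The Mir9 genes share all their mature sequences, so their low counts say little about that miRNA. Mir137 and Mir153, neural miRNAs whose sequences recur in no other gene, were at 0 in every library. The floor of 3 counts was 1.78 to 14.1 on the counts-per-million scale before TMM factors.

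The comparison of IP with input asks whether a gene stands higher or lower among AGO2-bound counts than among input counts. Both levels are relative to their own libraries, so the amount of a miRNA held by AGO2 is not measured. In resting cells Mir7-1 was at 0.796 times its input level (log2 fold change -0.33, SE 0.30), Mir7-2 at 1.29 times (0.37, SE 0.45) and Mir7b at 0.963 times (-0.05, SE 0.44). None of the 3 was called, where 28.8% of features were. For Mir7-1 and Mir7-2 the IP libraries did not overlap the inputs, in opposite directions, and 68% of all features were apart in this comparison. The shift of each gene was smaller than, or close to, its SE.

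In proliferating cells Mir7-1 was at 1.18 times its input (0.24, SE 0.30), Mir7-2 at 1.61 times (0.68, SE 0.40) and Mir7b at 1.18 times (0.24, SE 0.40). Again none was called, where 26.9% of features were. Mir7-1 and Mir7-2 did not overlap between IP and input, as 61.2% of features did not. With library totals in place of TMM factors the fold changes in proliferating cells became -0.37 for Mir7-1, 0.09 for Mir7-2 and -0.37 for Mir7b, so the direction of Mir7-1 and Mir7b depends on the scaling, while Mir7-2 stayed above 0 under each scaling run. Without proliferating input replicate 2 the values were -0.18 for Mir7-1 and -0.06 for Mir7-2. Mir7b was at -0.03 without proliferating input replicate 1 and at -0.11 without proliferating IP replicate 1.

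The median of all features shifted under library totals as well, from 0.11 to -0.50 in proliferating cells. A change of scaling moves all features by nearly the same amount, so the distance of a gene to that median could hardly change. It was 0.12 for Mir7-1 under TMM and 0.13 under library totals, and 0.57 and 0.58 for Mir7-2. Compared between the states, the IP-over-input change (resting minus proliferating) was -0.57 (SE 0.42) for Mir7-1, -0.32 (SE 0.60) for Mir7-2 and -0.29 (SE 0.60) for Mir7b. Their signs changed in some fits that left out 1 library. The highest values were 0.63 for Mir7-2 and 0.06 for Mir7-1, both without proliferating input replicate 2, and 0.49 for Mir7b without resting input replicate 1. Mir7b was also above 0 without proliferating input replicate 1 or 2 (0.20 and 0.07), and Mir7-2 without resting input replicate 1 (0.06). With library totals Mir7-2 was at 0.03 and Mir7b at 0.08. None of the 3 differences was called, while 17.4% of features were. In the order of group means each gene thus had the 2 resting groups below the 2 proliferating ones, while input and IP of a state did not differ beyond what the fit calls.

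The make-up of the counts of the family also differed between states, and this measure needs no scaling between libraries. It describes counts and need not be the make-up of mature miR-7. Reads of miR-7a-5p fit both Mir7-1 and Mir7-2 and may be missing or split between them, unlike those of Mir7b. Of the counts of the 3 genes, Mir7-1 gave 88.5% (95% exact interval 85.0 to 91.4) of resting input replicate 1 and 90.0% (86.8 to 92.6) of replicate 2, and 87.0% (85.1 to 88.7) and 83.9% (80.6 to 86.8) in the resting IPs. In proliferating cells it gave 75.2% (72.5 to 77.8) and 76.7% (73.4 to 79.7) of the inputs and 71.4% (69.6 to 73.1) and 74.5% (73.0 to 75.9) of the IPs. No resting interval reached a proliferating one, but these intervals cover counting error only. The replicates could differ by more: the Mir7-2 share had intervals of 12.5 to 16.9 and 6.42 to 10.6 in the proliferating inputs. Like the levels, the shares are a description without a test. Mir7-2 made up 4.17% to 7.61% of the family in resting and 8.33% to 15.5% in proliferating libraries, and Mir7b 5% to 8.5% and 10% to 15%. Unlike for Mir7-1, some of their intervals overlapped between states. For Mir7-2 resting IP replicate 2 had 5.56 to 10.1 and proliferating input replicate 2 had 6.42 to 10.6. For Mir7b resting IP replicate 2 had 6.33 to 11.1 and proliferating IP replicate 2 had 9.04 to 11. Mir7-1 was counted 11 to 21.2 times as often as Mir7-2 in resting libraries and 4.7 to 9.2 times in proliferating ones. Mir7-2 and Mir7b had no fixed order, at count ratios from 0.556 to 1.55, on either side of 1 in the proliferating inputs.

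**Figure D3:**
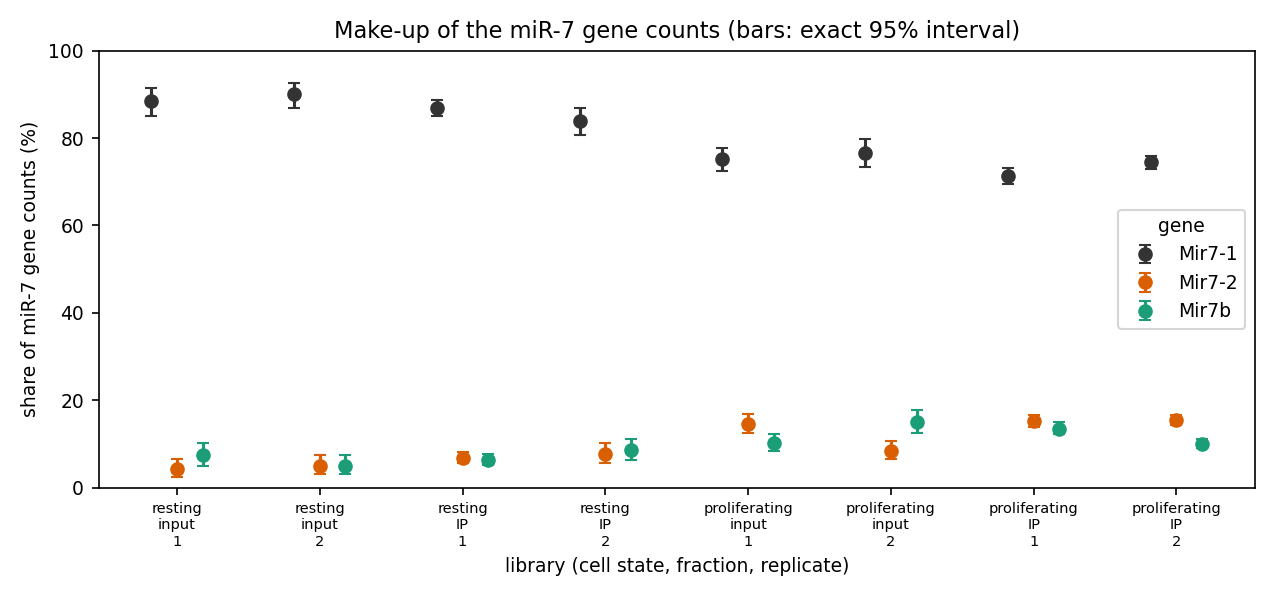
Share of Mir7-1, Mir7-2 and Mir7b in the counts of the 3 genes (percent, linear axis) in each library, with exact 95% intervals that cover counting error only. Mir7-1 gives 83.9% to 90.0% in the 4 resting libraries and 71.4% to 76.7% in the 4 proliferating ones.

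Over the 8 libraries the log2 CPM of the 3 genes followed each other, with Pearson r of 0.944 for Mir7-1 and Mir7-2, 0.950 for Mir7-1 and Mir7b and 0.938 for Mir7-2 and Mir7b. The libraries fall into 2 clusters by cell state, so these values mostly describe that step. Of 216 other features the 5 most like the summed family were Mir18 (r = 0.968), a gene of the growth-linked miR-17 cluster, Mir182 (0.967) of the Mir183 cluster, Mir155 (0.967), the activation-induced lymphocyte miRNA, Mir363 (0.952), from a paralogous copy of the miR-17 cluster, and Mir298 (0.952) at the imprinted Gnas locus. In all, 20 features had r above 0.9. The median of the 216 was 0.092. With each state centred on its own mean, r was 0.316 for Mir18, 0.384 for Mir182, 0.268 for Mir155, 0.530 for Mir363 and 0.139 for Mir298. Mir155 had a larger step than the family, from 11180 to 115300 CPM in the inputs. Mir363 went from 86.4 to 254 CPM there and from 48.4 to 284 CPM in the IPs.

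**Figure D4:**
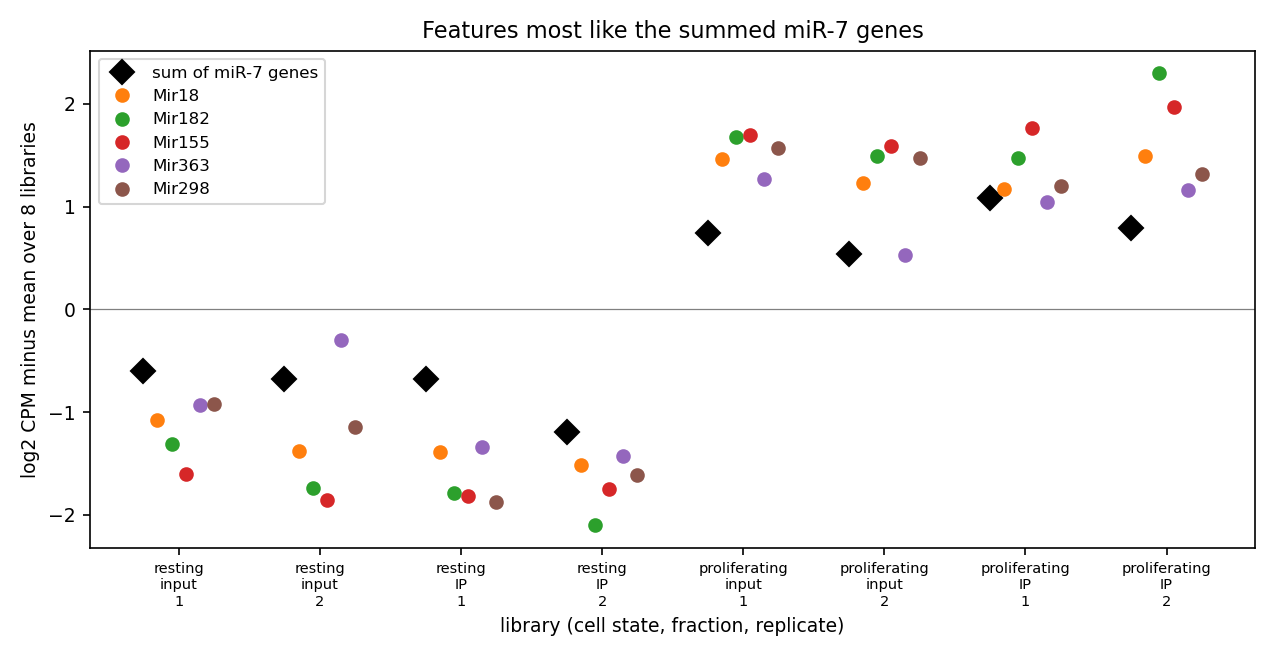
Log2 CPM minus the mean over the 8 libraries for the summed miR-7 genes (diamonds) and the 5 features with the highest Pearson r to them. All 6 lie below 0 in the 4 resting libraries and above 0 in the 4 proliferating ones.

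Other miRNAs of the circuits that miR-7 is known for were read beside it. Mir671, whose miRNA directs the cutting of Cdr1as, had 27 counts in each resting input and 68 and 31 in the proliferating inputs, against 20 and 20 in the resting and 25 and 77 in the proliferating IPs. It fell in the IP of resting cells (log2 fold change -1.79, SE 0.64, called by edgeR). Its value was -1.55 (SE 0.60) in proliferating cells and -1.09 (SE 0.61) for resting over proliferating input, neither of them called. Its level thus lay below the input in the IP, where miR-7 stayed near it, and the difference between them was not tested.

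Like miR-7, several other miRNAs are known to be destroyed when they pair with special target RNAs, and 10 of their genes were listed, 8 of them tested. In resting against proliferating input 3 of the 8 were higher and 1 lower, beside 23.3% and 26% of all features. Mir322 was higher in resting cells by 2.67 (SE 0.34) and Mir30b by 1.18 (SE 0.30), Mir222 was lower (-1.73, SE 0.38), and Mir221 was at -0.66 (SE 0.31), not called. In the IP 2 were higher and 2 lower, beside 23.7% and 28.3% of all features, with Mir322 at 2.06 (SE 0.33), Mir30b at 1.59 (SE 0.29), Mir221 at -1.41 (SE 0.31) and Mir222 at -2.02 (SE 0.38). The list's medians were 1.04 in input and 0.53 in IP, so these genes went both ways, and the miR-7 genes lay with Mir221 and Mir222 in their direction. Of IP over input, 3 of the 8 were called in each state, beside 28.8% of all features in resting and 26.9% in proliferating cells. In resting cells Mir30b was higher in the IP (1.60, SE 0.29), and Mir30c-1 (-3.03, SE 0.50) and Mir322 (-0.95, SE 0.32) were lower. In proliferating cells Mir30b (1.19, SE 0.29) and Mir221 (1.41, SE 0.31) were higher and Mir30c-1 (-1.85, SE 0.50) was lower. Mir30c-1, outside the 4 most abundant, was named after its values were seen. Like Mir7-1 and Mir7-2, it shares some of its mature sequences with another gene. Its counts may therefore leave out the shared arm in part, which was not tested.

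The wider list of neural and neuroendocrine miRNAs had 18 features in the table, of which 8 had a count and 1 was tested, Mir128-1, which other tissues also express. It gave 4077 of the list's 4185 counts. Its fold change was 0.62 (SE 0.33) for resting over proliferating input and 0.45 (SE 0.32) in the IP, not called in either, and its sign was opposite to that of the miR-7 genes. After it the list's most counted features were Mir138-2 with 36, Mir128-2 with 28 and Mir218-2 with 23 counts over all libraries.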

How the data were processed

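Libraries came from the QIAseq miRNA preparation and were read from a single end, per the labels' protocols. STAR 2.7.9a, SAMtools 1.15 and mm10 are named in the submitters' processing notes. The deposited files are 2 tables of raw counts per miRNA gene from alignments called deduplicated, per the file headers; the sources used here do not give the counter, its strand setting or its handling of reads that fit several places.

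Features were named by exact coordinates from RefSeq (GRCm38.p6), which named 1179. From the deposited counts, edgeR 4.0.16 (R 4.3.3) kept 219 features (filterByExpr, minimum count 10), computed TMM factors (0.797 to 1.34) and fitted a quasi-likelihood model with 4 groups to all 8 libraries, tested 2-sided in 5 contrasts with Benjamini-Hochberg adjustment. SE is the absolute log2 fold change over the square root of F. The fit was tested on simulated data. No 2 replicates were alike within sampling noise, with chi-square over degrees of freedom from 8.57. Counting intervals are exact Poisson or Clopper-Pearson. RNAfold 2.7.2 gave folding energies. Alternatives were library totals, upper-quartile factors, DESeq2 1.42.0, no filter, fits of the compared groups alone, a replicate block and leaving out each library.

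The members and lists were chosen with earlier results of these data known. Named beside the members are the 5 features most correlated with their sum and up to 4 most abundant members of each context list. Mir137, Mir153 and Mir9 features and the marker totals were named to account for the marker lists. Marker lists were B lymphocyte, myeloid, erythroid, endothelial, epithelial, stromal, neural and endocrine. Mir451a had no feature of its name.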

Additional observations from a re-analysis of the deposited data

Results flagged for a closer look

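Mir7-1 lay lower in both resting IPs than in both resting inputs, and higher in both proliferating IPs than in both proliferating inputs. Its libraries thus moved in opposite directions in the 2 states. IP and input were apart for 68% of all features in resting and 61.2% in proliferating cells. The nearest resting libraries were close, at 942.5 CPM in IP (95% counting interval 891 to 996) and 972 CPM in input (879 to 1073), and their intervals overlapped. The fitted difference between the states was -0.57 (log2, resting minus proliferating, SE 0.42) and was not called by edgeR. Over the alternatives it ran from -1.01 to 0.06, and with library totals Mir7-1 was below the input in both states (-0.59 and -0.37). Groups of 2 libraries were not examined for single outlying libraries.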

How the results depend on the processing

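Resting against proliferating cells, the miR-7 genes kept their direction in all alternatives run: in input Mir7-1 ran from -1.41 to -0.69, Mir7-2 from -3.19 to -2.04 and Mir7b from -2.66 to -1.91, and in IP from -1.84 to -0.98, -3.05 to -2.32 and -2.76 to -1.96. For IP over input, directions changed in proliferating cells as given above (8 of 10 alternatives kept the sign of Mir7-1, 9 of Mir7-2 and 7 of Mir7b), and Mir7b in resting cells ran from -0.29 to 0.49, the highest without resting input replicate 1. Library totals moved the median of all features in input to -0.40 and upper-quartile factors to 0.31. Relative to it Mir7-1 was at -1.01 and -1, a distance that a change of scaling leaves almost as it is. The split of calls in input, 51 higher and 57 lower, became 37 and 75 with library totals and 59 and 39 with upper-quartile factors; in IP, 52 and 62 became 75 and 38 with upper-quartile factors. Upper-quartile factors cut the features called for the difference between states from 38 to 22. Leaving out 1 library, features called ran from 45 to 72 (IP over input, resting), 30 to 45 (proliferating, main 59), 73 to 81 (states in input, main 108), 94 to 107 (states in IP) and 11 to 46 (difference); the lowest for proliferating cells came without proliferating input replicate 2 and for the difference without proliferating input replicate 1. A lone library is assumed to vary like the other groups.

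With the replicate block, 62 and 60 features were called for IP over input in resting and proliferating cells, 100 and 109 between states in input and IP and 40 for the difference, and no call on a miR-7 gene changed. Same-numbered libraries correlated from -0.123 to 0.177 in their deviations, and the labels do not say that a number marks a shared animal. Depth limits Mir7-2 and Mir7b most, with 17 to 30 counts in resting inputs.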
